A study of Homo sapiens with 2 samples.

Results

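The 41 genes described here are the hydrolases, membrane proteins, transporters and sorting proteins of the lysosome that the study's authors listed as changed in SNU-449 cells after ezetimibe. SNU-449 is a human hepatocellular carcinoma line, and ezetimibe lowers cholesterol by blocking NPC1L1, a sterol carrier of the cell surface. RNA of 1 culture treated with ezetimibe for 24 h was set against RNA of 1 control culture. The sources used here do not give the dose or say whether the control received a vehicle. The genes were chosen by the authors' own call of change between these libraries, as printed in the Lysosome row of the authors' deposited table of KEGG pathways. From the 50 genes of that row the proton pump (V-ATPase) subunits, the ABCA transporter and NPC1 and NPC2 were left out. The 41 genes are part of 2238 listed under any pathway.

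Lysosomes are acidic organelles in which soluble hydrolases break down proteins, glycans, lipids and nucleic acids. Most of these enzymes receive a mannose 6-phosphate tag in the Golgi apparatus, and clathrin with adaptor protein complexes carries them, and the lysosomal membrane proteins, to endosomes and lysosomes. Many lysosomal genes carry an E-box of the type bound by TFEB, TFE3 and MITF, transcription factors that are held in the cytoplasm by mTORC1 in fed cells. Loss of single enzymes causes lysosomal storage diseases.

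Per gene, the table holds a direction alone, so the values below are directions, annotations and sequence features. Up was taken to mean higher in the ezetimibe library, after the order in which the table's title names the libraries; the table cannot show whether that order was kept. With 1 library per condition no difference has a replicate check, and because the rule used the same comparison, the directions are a description without a test. Read depth is unknown from this table, and without levels the cell type could not be checked against its markers.

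The 41 genes were split almost evenly, with 20 listed as up and 21 as down. The share up was 48.8% (95% interval 32.9 to 64.9 by the exact Clopper-Pearson method, which covers counting error only), beside 32.5% of all 2238 listed genes. That interval treats the genes as independent, although all were measured in the same pair of libraries and chosen by their comparison. It is therefore no test against the 32.5%. In the authors' deposited table the whole Lysosome row had 50 of 139 background genes listed as changed, which is 36.0%, beside 25.2% of all 8877 background genes. It had 28 genes up, or 20.1% of the row's background, beside 8.20% of all background genes. It had 22 genes down, or 15.8%, beside 17.0%. The authors' deposited table gave this row a p of 0.0143 and a q of 0.0765, which put it 61st of 327 pathways by p. Of the 9 genes left out by the rule, all 6 V-ATPase subunits and NPC1 and NPC2 were up, and ABCA2 was down.

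Promoter sequences are shown first because E-boxes are the sequence feature lysosomal genes are known for. RefSeq (GRCh38.p14) promoter windows, 250 bases before to 50 after the RefSeq gene start, were matched by symbol for 28 of the 41 genes. Genes not matched included PSAP, AP3B1, AP3M2, AP3D1, HEXA, ENTPD4, LAPTM4B, LAMP3, CTSK, CTSO, ARSA and HGSNAT. Some windows lay inside the gene as GENCODE release 29 places it. The IDUA window began at 999460, while the GENCODE gene starts at 986997. The SORT1 window ended at 109393385, while that minus-strand gene starts at 109397951. Also wholly inside were the windows of GALC, CTSV, AP1S3, ABCB9 and PPT2, listed as down. So were those of CTSL, CTSD, CTNS, ACP2 and LAPTM4A, listed as up. The CTSD window ended at 1764177, while that minus-strand gene starts at 1764573. Among all these windows, only that of CTSD counts below as holding an E-box. The E-box core CACGTG, which reads the same on both strands, lay in the windows of 7 of 28 genes, beside 7.26% of all 35116 windows. The windows printed whole are those that hold the longer form TCACGTGA, and all belong to genes listed as up. Capitals mark every CACGTG, 5′ to 3′ on the gene's strand.
LAMP1 (chr13:113296989-113297288, plus strand): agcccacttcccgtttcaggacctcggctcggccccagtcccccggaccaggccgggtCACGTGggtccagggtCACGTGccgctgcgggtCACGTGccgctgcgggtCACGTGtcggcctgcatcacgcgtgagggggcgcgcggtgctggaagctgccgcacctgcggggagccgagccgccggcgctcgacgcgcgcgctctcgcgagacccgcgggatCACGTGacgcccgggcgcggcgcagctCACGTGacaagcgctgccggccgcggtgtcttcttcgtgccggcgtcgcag
MCOLN1 (chr19:7522374-7522673, plus strand): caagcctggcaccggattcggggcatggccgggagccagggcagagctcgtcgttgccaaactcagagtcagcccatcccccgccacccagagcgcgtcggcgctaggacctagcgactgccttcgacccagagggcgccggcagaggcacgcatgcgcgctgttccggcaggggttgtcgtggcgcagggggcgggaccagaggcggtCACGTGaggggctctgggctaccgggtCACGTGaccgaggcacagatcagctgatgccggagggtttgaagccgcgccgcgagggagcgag
GAA (chr17:80101331-80101630, plus strand): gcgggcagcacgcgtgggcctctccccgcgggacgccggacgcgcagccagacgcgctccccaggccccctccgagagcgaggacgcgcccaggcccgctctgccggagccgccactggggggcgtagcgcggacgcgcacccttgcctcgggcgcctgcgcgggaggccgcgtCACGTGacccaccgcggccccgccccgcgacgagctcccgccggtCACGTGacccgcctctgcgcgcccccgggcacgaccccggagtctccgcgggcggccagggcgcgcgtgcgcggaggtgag

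LAMP1, the main glycoprotein of the lysosomal membrane, held 6 matches of the core. Their first letters lay at -192, -176, -159, -142, -28 and -1 from the gene start, where -1 is the base just before it. The 4 distal matches followed each other at intervals of 16 or 17 bases, and the 2 proximal ones had the longer form. MCOLN1, the calcium channel of the lysosomal membrane, held the longer form at -41 and -14 (core positions). GAA, the acid glucosidase that degrades glycogen, held it at -76 and -31. The other windows with a single core, in 42-base stretches, came from 2 genes listed as up (NEU1 and CTSD) and 2 listed as down (AP1S2 and ARSB).
NEU1 (chr6:31862924-31862965, minus strand): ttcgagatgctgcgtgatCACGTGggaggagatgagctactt
CTSD (chr11:1763951-1763992, minus strand): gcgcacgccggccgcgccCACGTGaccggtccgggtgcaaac
AP1S2 (chrX:15855022-15855063, minus strand): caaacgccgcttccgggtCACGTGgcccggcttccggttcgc
ARSB (chr5:78986095-78986136, minus strand): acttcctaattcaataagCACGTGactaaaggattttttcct

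The core thus lay in 5 of 15 matched windows of genes listed as up (33.3%) and 2 of 13 of genes listed as down (15.4%), beside 13.0% of the windows of all genes listed as up and 8.78% of those listed as down. The longer form lay in 3 of 15 windows (20.0%) and 0 of 13 windows, beside 2.50% and 1.52% for all genes listed as up and as down and 0.980% of all windows. The single cores lay at -126 in NEU1 and -47 in CTSD, both listed as up, and at -232 in AP1S2 and -160 in ARSB, both listed as down. LAMP1, listed as up, held cores farther from the start than that of ARSB, at -192 and -176. None of its cores lay as far as that of AP1S2. A match is a string of letters and does not show that a factor binds there.

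**Figure D1:**
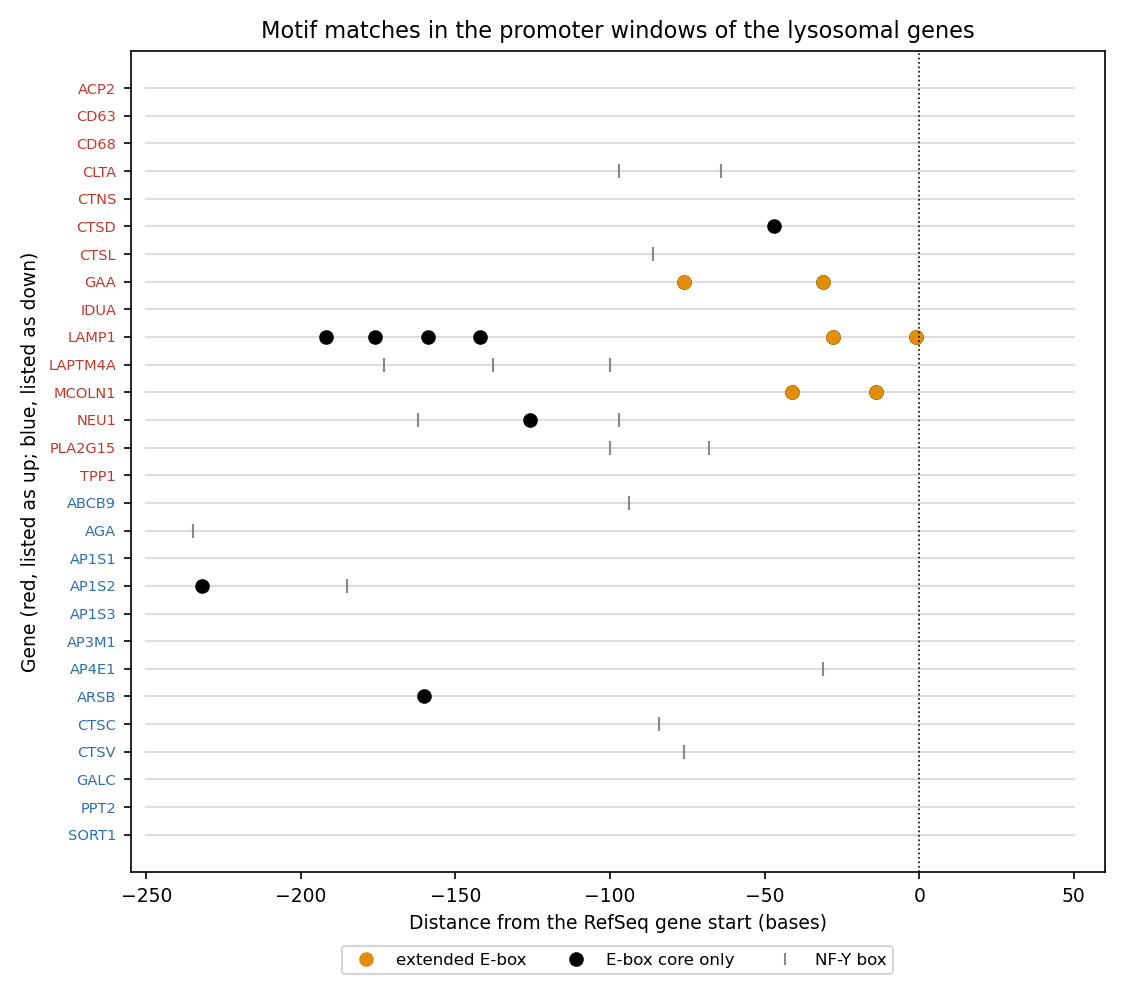
Motif matches in the promoter windows of 28 lysosomal genes (rows; red names, listed as up; blue names, listed as down) by distance from the RefSeq gene start in bases. Orange points, the longer E-box, appear in GAA, LAMP1 and MCOLN1; black points are cores without it, and grey ticks are NF-Y boxes.

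Other motifs were searched in the same windows. The NF-Y box CCAAT, searched on both strands, was in 5 of 15 windows of genes listed as up and 6 of 13 of genes listed as down, beside 36.2% of the windows of all listed genes and 34.6% of all windows. The GC box GGGCGG, also on both strands, was in 11 of 15 (73.3%) and 9 of 13 (69.2%), near the 69.6% and 64.9% of all genes listed as up and as down; over all windows the share was 45.0%. The amino acid response element TGATGCAA was in 0 of 28 windows on either strand, beside 0.688% of the windows of all listed genes and 0.866% of all windows, which says only that these letters are not in these windows. The E-box core overlaps the longer form by construction. Median GC content of the windows was 63.7% for genes listed as up and 61.7% for genes listed as down, below the 65.7% and 65.0% of all genes listed as up and as down and above the 58.7% over all windows.

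**Figure D2:**
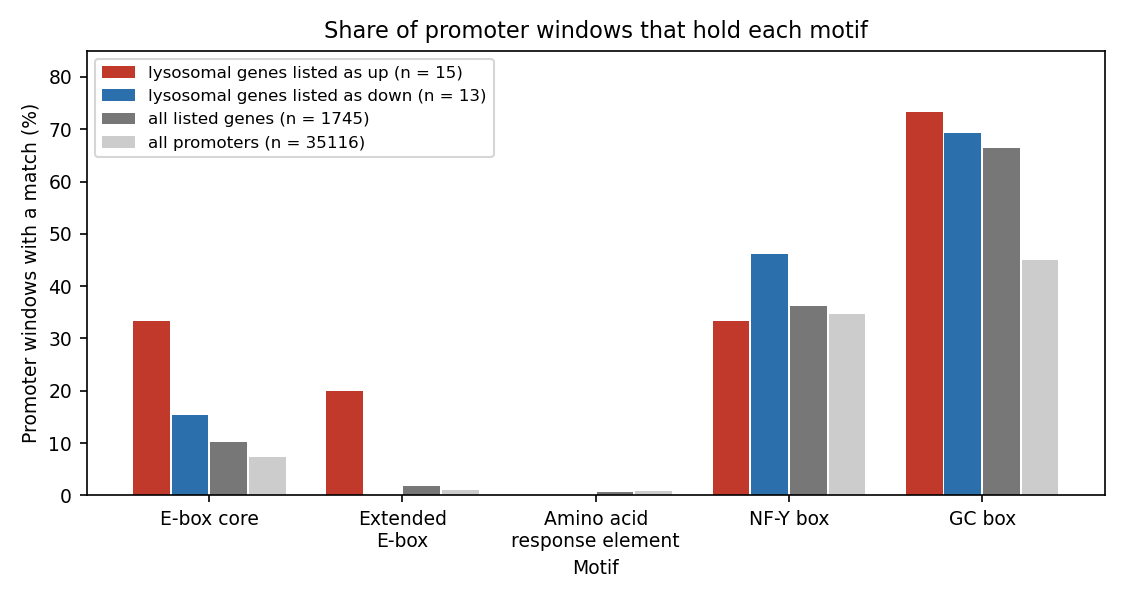
Share of promoter windows with a match (percent) for each motif, in lysosomal genes listed as up (n = 15) and as down (n = 13), all listed genes (n = 1745) and all promoters (n = 35116). The E-box bars of lysosomal genes listed as up, at 33.3% and 20.0% (5 and 3 of 15 windows), stand above those of all promoters, at 7.26% and 0.980%. For all genes listed as up, which are not drawn, the shares were 13.0% and 2.50%.

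The 7 listed proteases, of 18 in a list of the pathway's proteases, had 3 up and 4 down. For this role and those below, 32.5% of all 2238 listed genes were up, and 25.2% of all background genes were listed. The table does not show which genes of the role list are in that background. Cathepsin D (CTSD, ENSG00000117984), the main aspartic protease of the lysosome, was up, as were cathepsin L (CTSL, ENSG00000135047), a cysteine endopeptidase, and TPP1, which removes tripeptides from the start of proteins. The cysteine proteases CTSC, CTSK, CTSO and CTSV were down; CTSC activates serine proteases of immune cells, and CTSK is the collagenase of osteoclasts. CTSL (chromosome 9, 87725519 to 87731393, plus strand, GENCODE release 29 on GRCh38) and CTSV (chromosome 9, 97029679 to 97039643, minus strand) are close relatives that were listed in opposite directions. Their coding sequences were identical at 83.5% of 999 aligned bases, with a longest shared run of 40 bases. The sources used here give neither the read length nor how reads matching both genes were assigned, so both directions are uncertain. CTSK shared runs of at most 20 bases with either.

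The 6 listed genes of the glycosidase role, of 17 in the list and with the amidase AGA counted among them, had 4 up and 2 down. Those listed as up were GAA (ENSG00000171298), HEXA (ENSG00000213614), the alpha subunit of the hexosaminidase that degrades GM2 ganglioside, IDUA, which removes iduronic acid from heparan and dermatan sulfate, and the sialidase NEU1. Those listed as down were GALC, which cleaves galactosylceramide, and AGA, which cleaves the bond between asparagine and N-linked glycans. The sulfatase role holds 8 genes in the list, not all of them sulfatases. The 2 listed sulfatases went opposite ways: ARSA, which acts on sulfatide, was up and ARSB, which acts on dermatan and chondroitin sulfate, was down. Their coding sequences were 61.3% identical, with a longest shared run of 12 bases. Of the other hydrolases, the acid phosphatase ACP2 and the lysosomal phospholipase PLA2G15 were up, and the thioesterase PPT2 was down. PSAP, the precursor of the saposins that help enzymes reach lipids, was up. In all, 11 of the 19 genes that the list places among soluble enzymes and activators were up (57.9%, beside 32.5% of all listed genes).

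**Figure D3:**
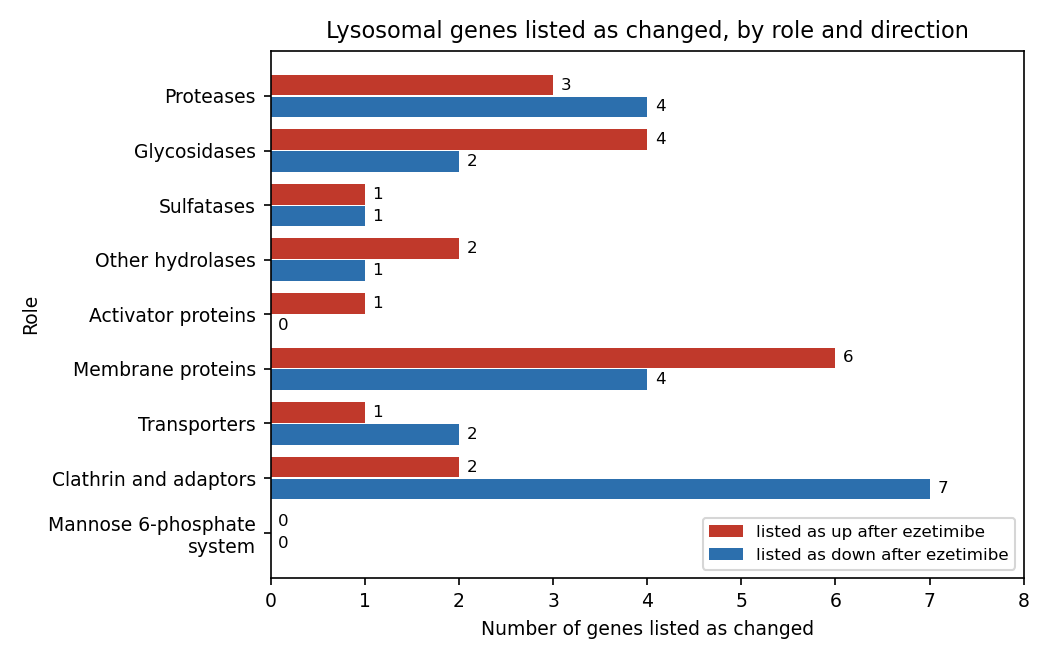
Number of lysosomal genes by role that were listed as up (red) or as down (blue) in ezetimibe-treated cells. Clathrin and adaptors had 2 up and 7 down (22.2% up, beside 32.5% of all listed genes). No gene of the mannose 6-phosphate system was listed.

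The 10 listed genes placed among membrane proteins, of 17 in the list, had 6 up and 4 down (60% up, beside 32.5% of all listed genes). The placing follows the list, and not every protein so placed stays in the membrane. LAMP1 (ENSG00000185896), LAMP3, the tetraspanin CD63, CD68, a glycoprotein abundant in macrophages, LAPTM4A and the channel MCOLN1 (ENSG00000090674) were up. The genes listed as down included the nucleoside diphosphatase ENTPD4, LAPTM4B and the sorting receptor SORT1. LAPTM4A and LAPTM4B went opposite ways; their coding sequences were 65.0% identical, with a longest shared run of 18 bases. Of the 7 transporters and transport-linked enzymes in the list 2 were listed, and ABCB9 was added to them after its direction was seen. The cystine exporter CTNS was up, and HGSNAT, which acetylates heparan sulfate, and the peptide transporter ABCB9 were down.

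The 9 listed genes of clathrin and adaptor complexes, of 26, had 2 up and 7 down. The share up was 22.2%, beside 32.5% of all 2238 listed genes. The clathrin light chain CLTA and AP3D1, the large delta subunit of adaptor complex AP-3, were up. All 3 listed small subunits of AP-1, which works at the trans-Golgi network and endosomes, were down (AP1S1, AP1S2 and AP1S3). The AP-3 subunits AP3B1, AP3M1 and AP3M2 were also down, as was AP4E1 of AP-4. AP-3, which carries membrane proteins to lysosomes, had 1 listed subunit up and 3 down. Paralogs among them were less alike than CTSL and CTSV: AP3M1 and AP3M2 were 74.3% identical and the AP-1 small subunits 68.9 to 71.6%, with longest shared runs of 12 to 21 bases. Of the 5 genes of the mannose 6-phosphate system in the list (GNPTAB, GNPTG, NAGPA, M6PR and IGF2R), 0 were listed. The share listed over all background genes was 25.2%. Absence from the row can mean no call of change, no expression, or no place in the authors' background.

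Direction went with the base composition of the transcript, as it did among all listed genes. In the longest GENCODE transcript, the median GC content was 55.0% for the 20 genes listed as up (range 45.0 to 69.3) and 42.2% for the 21 listed as down (32.8 to 63.3), beside 55.2% and 43.6% for all genes listed as up and as down. The median transcript was 2560 bases long in the up group, against 4322 bases in the down group, and the median gene spanned 16635 bases in the up group, against 44196 bases in the down group. The lowest of the genes listed as up were LAMP3 (45.0%) and LAPTM4A (45.1%); the highest of those listed as down were ABCB9 (63.3%), PPT2 (56.5%) and AP1S1 (56.0%). The ranges therefore overlapped between 45.0 and 63.3%, and the part of base composition in the directions, E-box counts included, was not tested.

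**Figure D4:**
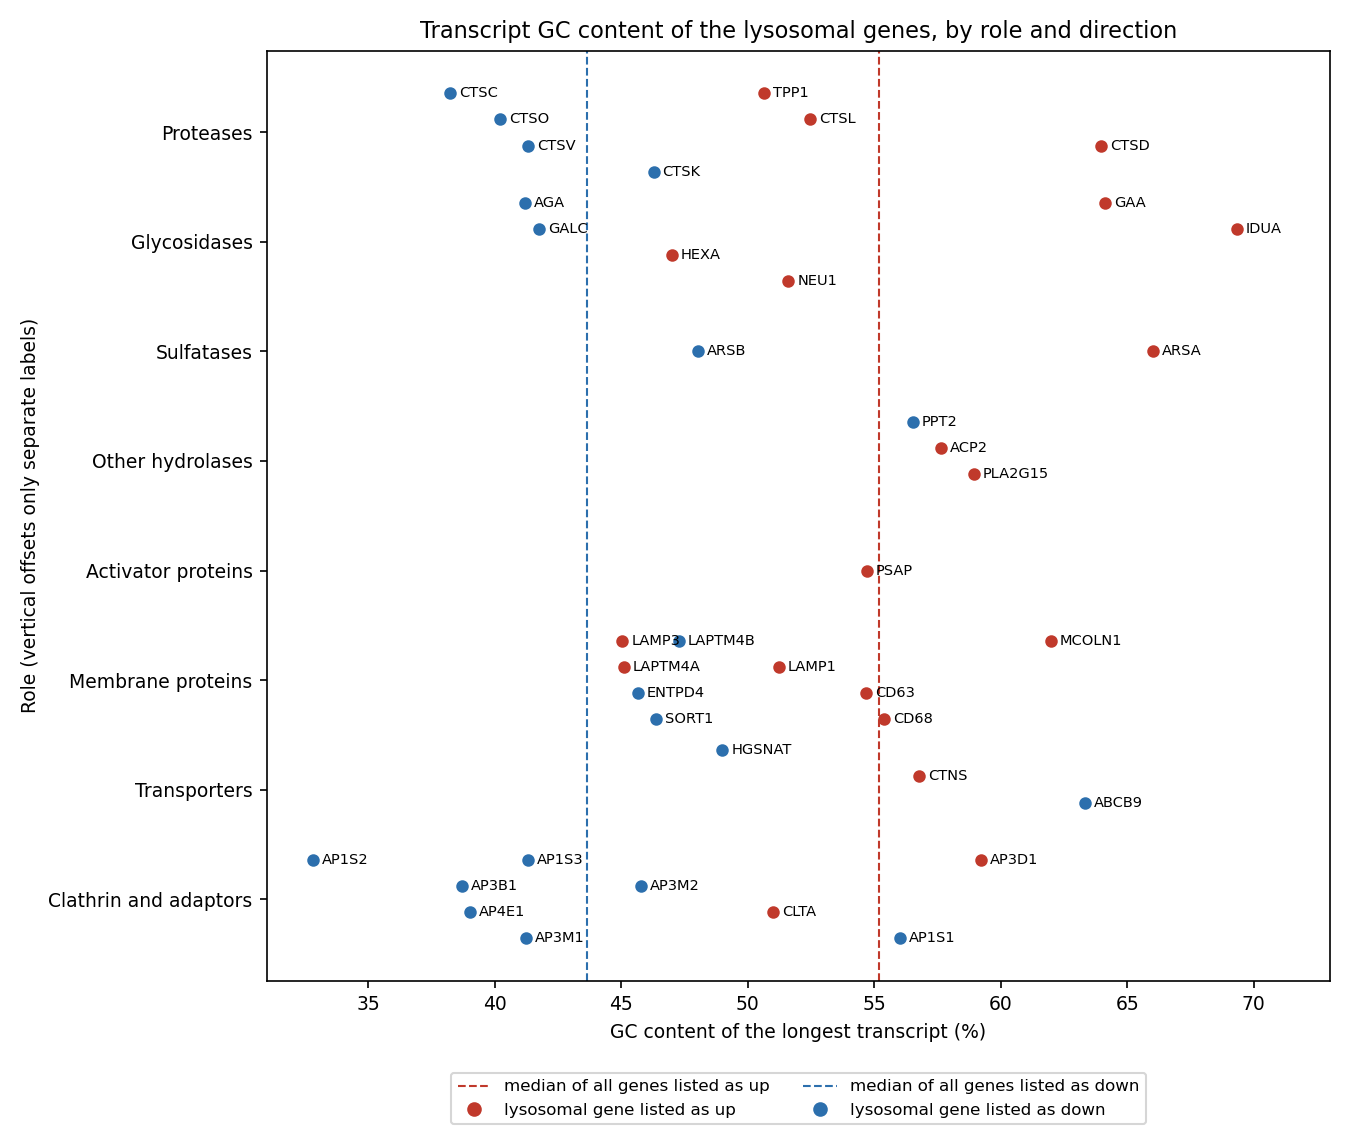
GC content of the longest transcript (percent) of each lysosomal gene named in the text, by role; red points are listed as up and blue as down, and dashed lines mark the medians of all genes listed as up (55.2%) and as down (43.6%). The adaptor genes listed as down lie between 32.8 and 45.8%, except AP1S1 at 56.0%.

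All listed genes were divided by GC content into 5 classes of near-equal size. In the lowest class 0 of 4 lysosomal genes were up, beside 4.91% of all listed genes there, and in the next 0 of 7, beside 12.5%. In the middle class 3 of 10 were up (HEXA, LAMP3 and LAPTM4A), beside 34.2%. In the fourth class 10 of 12 were up, beside 51.2%, and AP1S1 and PPT2 were down. In the highest class 7 of 8 were up, beside 59.8%, and ABCB9 was down. The adaptor genes AP1S2, AP3B1 and AP4E1 were in the lowest class with CTSC, and AP1S3 and AP3M1 in the next.

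**Figure D5:**
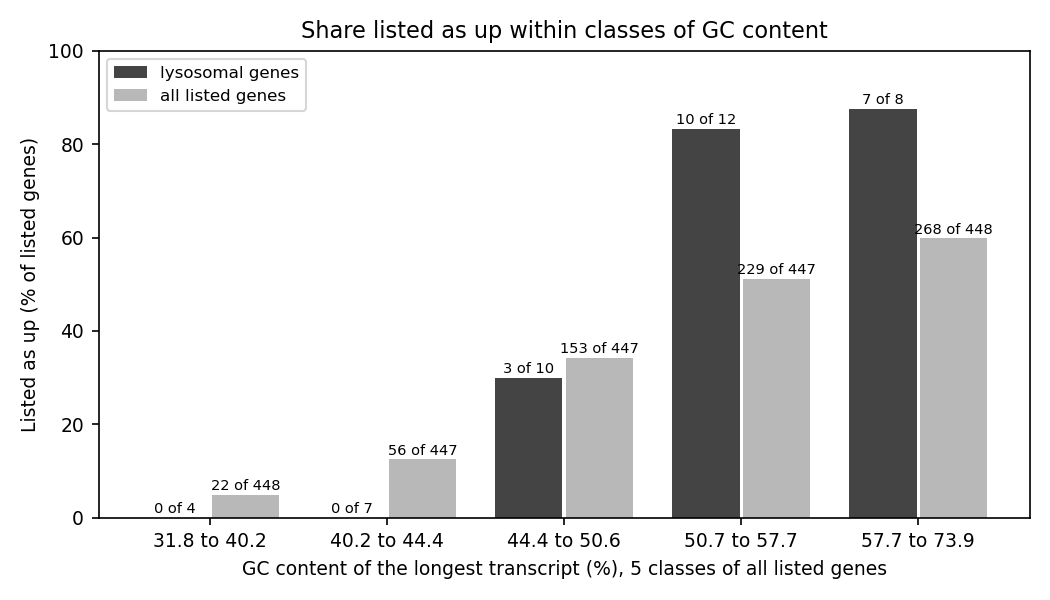
Share listed as up (percent) among lysosomal genes (dark) and all listed genes (light) in 5 classes of transcript GC content; numbers above the bars are genes listed as up of those listed. Both shares are higher in the classes of higher GC content, with 7 of 8 lysosomal genes up in the highest class.

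Many of the genes also stand under narrower KEGG pathways. Under Glycosaminoglycan degradation, HEXA and IDUA were up and ARSB and HGSNAT down, of 2 up and 4 down in that whole row. Under Sphingolipid metabolism, ARSA and NEU1 were up and GALC down, of 8 up and 8 down. Under Apoptosis, where KEGG places 6 of the cathepsins, CTSD and CTSL were up and CTSC, CTSK, CTSO and CTSV down, of 27 up and 37 down. Under Autophagy, the 3 shared genes (CTSD, CTSL and LAMP1) were up, of 27 up and 29 down. The gene under most other pathways was CTSL, with 7, followed by HEXA with 6, CLTA and CTSD with 5 each, and CTSK with 4. GAA, LAMP1 and PPT2 were under 3 others. IDUA, NEU1, ACP2, GALC, ENTPD4, SORT1, ARSB and HGSNAT were under 2 others. PLA2G15, CD63, ARSA, AP1S1, AP1S2, AP1S3, AGA, CTSC, CTSO, CTSV and ABCB9 were under 1 other. The remaining 8 genes listed as up and 6 listed as down were under no other pathway.

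By position, the genes were spread over 20 chromosomes. All 3 on chromosome 17 (CD68, CTNS and GAA) were up, beside 39.7% of all listed genes there, and 3 of 4 on chromosome 11 (ACP2, CTSD and TPP1) were up, beside 44.7%. All 4 on chromosome 8 (AP3M2, ENTPD4, HGSNAT and LAPTM4B) were down, where 38.1% of all listed genes were up. Protein-coding genes overlapped 12 of the 41 genes in GENCODE release 29, and 6 of them on the same strand, among them HEXA, PPT2, ENTPD4, MCOLN1 and CTSD. VCL, which overlaps AP3M1, was also listed, as down. The sources used here do not say whether reads were counted by strand, so these directions are uncertain where genes share bases.

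Of 43 regulators of lysosomal gene expression and position that lie outside the rule, 13 were listed, 9 as up and 4 as down. The share listed was 30.2%, near the 25.2% of all background genes, although the table does not show which of the 43 are in that background. Of the 13, 69.2% were up, beside 32.5% of all listed genes. Transcript GC content ran from 42.1 to 66.1% in the regulators listed as up and from 41.4 to 45.3% in those down. Its part in these directions was not tested. TFE3, which drives lysosomal genes through E-boxes, was up, and its relative MITF was down; TFEB was not listed. The Rag GTPases RRAGC and RRAGD, which place mTORC1 on the lysosome, were up and RRAGB was down. FLCN, which acts on the Rag GTPases, NPRL2, which restrains them, and the mTORC1 subunit RPTOR were up. The calcineurin subunit PPP3CC was up and PPP3CA down, the kinase GSK3B was down, and RILP and UVRAG, which act in the movement and fusion of late endosomes, were up.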

How the data were processed

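Total RNA of 1 ezetimibe culture and 1 control culture was sequenced. HISAT2 2.0.4 and StringTie 1.3.0 are named per the submitters' processing notes. Not given in the sources used here were the settings, build, annotation, depth and the way edgeR (named in the deposited table's title) was run on 1 library per condition. For each pathway the deposited table holds, per the file headers, numbers of genes, the authors' ratio called the rich factor, and their p-value and q-value. No column of per-sample values was used. The genes and lists were chosen with earlier results of these data known. By rule, every gene is named with its direction and number of pathways, except 1 gene that is not reported here by name. Role symbols were matched directly and by gene ID, older symbols included, with the same result. GC content, transcript length, span, position and overlaps came from GENCODE release 29 (GRCh38) for 2237 of 2238 listed genes. Promoters came from RefSeq (GRCh38.p14), for 28 of 41 genes and 1745 of 2238 listed genes; motifs were searched on both strands, overlaps included. Coding sequences were aligned globally. The reading of directions and the motif search were tested on simulated data. The alternatives were other gene sets, GC classes, mean transcripts, a shorter window and 1 strand. Tools were Biopython 1.88, Matplotlib 3.10.9, pandas 2.3.3, SciPy 1.17.1, NumPy 2.4.6 and Python 3.11.15.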

Additional observations from a re-analysis of the deposited data

How the results depend on the processing

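No paired analysis was possible because there is 1 library per condition. Among all listed genes, the share up rose from 4.91% in the lowest of the 5 classes of GC content to 59.8% in the highest. The share of lysosomal genes listed as up, 48.8%, was 73.9% among the 23 with a GC content above the median of all listed genes. It was 16.7% among the 18 at or below that median. It was 56.0% with all 50 genes of the Lysosome row, 56.2% without clathrin and adaptors, 43.2% without genes under more than 5 pathways, 57.1% among the 14 genes under no other pathway than Metabolic pathways, and, in a choice made after seeing the data, 44.8% without genes that overlap a protein-coding gene. As means over all transcripts of a gene, the median length was 1325 bases in the up group and 1777 bases in the down group, and the median GC content 54.6% in the up group and 45.6% in the down group. In the 150 bases before the start alone, the E-box core was in 5 of 15 windows of genes listed as up and 0% of 13 listed as down. The shares over all listed genes at this setting were 9.29% of those up and 5.49% of those down. Counting error and the choice of start site limit these shares, and the spread between cultures is unknown.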
